A study of Homo sapiens with 10 samples.

Results

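Claudins and their partners at the tight junction were measured by bulk RNA sequencing in irradiated and control kidney epithelial cells. The set held 10 genes of the 61587 in the count table, chosen by name and found through their Ensembl identifiers: 7 claudins (CLDN1, CLDN2, CLDN3, CLDN4, CLDN7, CLDN10 and CLDN12) and OCLN, TJP1 and F11R. The cells were RPTEC/TERT1, human proximal tubular epithelial cells immortalised with telomerase. The cell line label of the samples runs on from RPTEC/TERT1 to RPTEC/TERT10, whereas the design text names RPTEC/TERT1 for all, and 1 line is assumed here. The Irradiated group was 5 samples given 10 Gy of gamma radiation from a caesium source and the Control group was 5 mock-irradiated samples, with RNA taken on day 7 from both. Replicates 1 to 5 carried the same numbers in both groups and were compared as pairs. The study used irradiation of these cells to induce senescence, so the comparison asks what the genes of the paracellular seal did in that state.

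Tight junctions close the space between neighbouring epithelial cells at the apical end of their lateral membranes. Claudins are the membrane proteins that form the strands of the junction, and each type sets how tight the strand is or which ions pass: CLDN2 and CLDN10 form paracellular pores, whereas CLDN1, CLDN3 and CLDN4 are mostly described as sealing claudins. OCLN (occludin) is a membrane protein of the strand that is not a claudin, F11R encodes the adhesion molecule JAM-A, and TJP1 encodes the scaffold ZO-1, which ties the strand to actin. The proximal tubule is a leaky epithelium in which CLDN2 and CLDN10 are characteristic, and other claudins mark the thick ascending limb and the collecting duct.

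Of the 10 genes, 9 had at least 200 counts over the 10 samples and were tested. CLDN1, F11R and CLDN12 rose after irradiation and CLDN2, CLDN3 and CLDN4 fell, at an adjusted p under 0.05 in edgeR's quasi-likelihood test with the replicate number as a block. CLDN10, OCLN and TJP1 were not called, and CLDN7 was not tested. The genes that passed were 6 of 9, in a data set where 46.6% of 19006 genes tested were called, 23.9% higher and 22.7% lower. Higher genes were 51.4% of those called and 38.0% with scaling by library size alone, where the set had 3 genes higher and 4 lower. Irradiated and control values did not overlap for 4 of the 9, against 26.7% of all genes tested. CLDN1 alone rose more than 2-fold, as did 5.26% of all genes, and CLDN2 alone fell more than 2-fold, as did 4.06%. The median log2 fold change of the 9 genes was 0.04 and that of all genes -0.01. The p-values measure the spread between these samples, which the labels do not tie to separate cultures. In bulk RNA a lower value may be fewer cells with a transcript or less of it per cell, and these cannot be told apart.

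**Figure D1:**
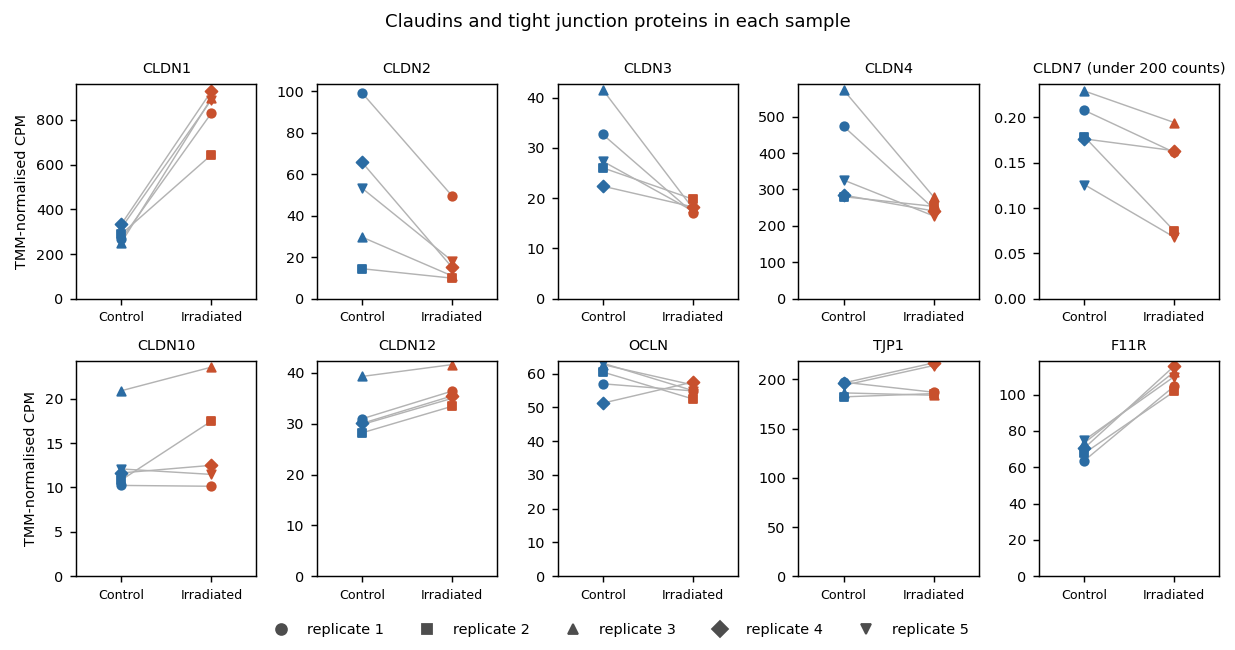
TMM-normalised CPM (counts of a gene scaled to library size and composition) of each of the 10 genes in each of the 10 samples. Blue points are Control and orange points Irradiated, the marker shape gives the replicate number, grey lines join samples of the same number, and each axis starts at 0. The 5 lines of CLDN1 and of F11R all climb to irradiated values above every control, the 5 lines of CLDN2 all descend, and those of OCLN and TJP1 run both ways.

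CLDN1, a sealing claudin, gave the largest change of the 10 genes. It lies on the minus strand at chr3:190305707-190322446 of GRCh38. Its level was 266, 289, 251, 333 and 317 CPM in control replicates 1 to 5 and 831, 644, 897, 929 and 890.0 CPM in irradiated replicates 1 to 5. The lowest irradiated sample, replicate 2, was still well above the highest control, replicate 4. The mean went from 291 ± 34.2 to 838 ± 114 CPM (mean ± SD over 5 samples, as for all such values here). The fitted log2 fold change was 1.52 (SE 0.093, 95% interval 1.30 to 1.74, adjusted p = 3.265e-05, edgeR), and each of the 5 pairs rose, by 1.16 to 1.84 on the log2 scale.

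CLDN1 has a neighbour that moved the other way. CLDN16, a claudin of the thick ascending limb involved in magnesium and calcium reabsorption, starts on the plus strand at chr3:190322541-190412138, and 94 bases separate its annotated start from that of CLDN1. The interval is shown because 1 gene on each side of it was called, in opposite directions. It holds no annotated exon, and capitals mark the 2 matches to the GC box (GGGCGG or its complement, searched on both strands), which are also found in 42.6% of 35116 RefSeq promoter windows of 250 bases. The sequence is from the RefSeq assembly GRCh38.p14 at chr3:190322447-190322540, minus strand, ending at the base before the CLDN1 start.
CLDN1 to CLDN16 interval: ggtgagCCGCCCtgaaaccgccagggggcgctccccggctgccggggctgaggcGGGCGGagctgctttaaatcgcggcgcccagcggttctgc
CLDN16 stood at 363, 360, 478, 296 and 378 CPM in the controls and 273, 277, 320, 258 and 271 CPM after irradiation. Its groups overlapped, since irradiated replicate 3 exceeded control replicate 4, but each irradiated sample was below its own control. The log2 fold change was -0.41 (SE 0.060, adjusted p = 0.00122). The ratio of the CLDN1 to the CLDN16 level per kb of exon was 0.48 to 1.03 in the controls and 2.13 to 3.30 after irradiation.

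F11R, the JAM-A gene at chr1:160995211-161021343 on the minus strand, followed CLDN1 in size among the genes that rose. It was at 63.6, 67.7, 73.4, 70.5 and 75.0 CPM in the controls and 105, 102, 113, 116 and 110.0 CPM in the irradiated samples. No irradiated value came near the control range. The mean went from 70.0 ± 4.5 to 109 ± 5.7 CPM, a log2 fold change of 0.64 (SE 0.043, interval 0.54 to 0.74, adjusted p = 4.197e-05, edgeR). A read-through gene on the same strand covers 36.6% of its exon bases, and reads there cannot be assigned to one of the pair.

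CLDN12, at chr7:90383721-90513402 on the plus strand, is an atypical claudin linked to calcium permeability. Its values were 31.0, 28.2, 39.3, 30.1 and 29.8 CPM in the controls and 36.4, 33.4, 41.6, 35.5 and 35.0 CPM in the irradiated samples. Replicate 3 was highest in both groups and the groups overlapped, although each irradiated sample exceeded its own control. The change was small, at a log2 fold change of 0.21 (SE 0.044, interval 0.10 to 0.31, adjusted p = 0.00668, edgeR). The call rests on the pairing, with an adjusted p of 0.114 without the replicate block, and 17.6% of its exon bases lie under other genes of the same strand.

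CLDN2, the pore-forming claudin that conducts sodium and water in the proximal tubule, fell the most of the 10 genes and was the most variable between samples. It lies at chrX:106900164-106930861 on the plus strand. Control values were 99.3, 14.5, 29.7, 65.8 and 53.3 CPM and irradiated values 49.6, 9.91, 10.99, 15.1 and 18.3 CPM. Control replicate 1 was the highest control and irradiated replicate 1 the highest irradiated sample, replicate 2 was lowest in both groups, and the groups overlapped. The coefficient of variation was 62.7% among controls and 79.2% among irradiated samples, and the next largest values were 33.6% for CLDN4 among controls and 43.3% for CLDN7 among irradiated samples. The fall was seen in each of the 5 pairs, from -0.55 to -2.12 on the log2 scale, and the fit gave -1.34 (SE 0.199, interval -1.80 to -0.88, adjusted p = 0.00127, edgeR). Without the replicate block the fold change was about the same and the adjusted p was 0.0714.

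CLDN3 and CLDN4 are sealing claudins that lie on opposite strands of chromosome 7, at chr7:73768997-73770270 and chr7:73799542-73832690, with 29271 bases between them. CLDN3 was at 32.7, 26.0, 41.6, 22.4 and 27.3 CPM in the controls and 17.1, 19.8, 18.0, 18.3 and 17.5 CPM after irradiation. Every irradiated value was below every control, and the irradiated samples lay close together. The log2 fold change was -0.70 (SE 0.130, interval -0.999 to -0.393, adjusted p = 0.00371, edgeR).

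CLDN4 was at 474, 280.3, 573, 285 and 326 CPM in the controls and 248, 254, 279.9, 241 and 227 CPM after irradiation. Irradiated replicate 3 was within 1 CPM of control replicate 2, so the groups only just failed to overlap. The log2 fold change was -0.57 (SE 0.136, interval -0.89 to -0.26, adjusted p = 0.0106, edgeR). The level of CLDN3 per kb was 0.25 to 0.34 of that of CLDN4 in the controls and 0.24 to 0.29 after irradiation, so the pair kept about the same ratio while both fell.

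Control replicates 1 and 3 were the highest controls for both CLDN3 and CLDN4 and the lowest for CLDN1. The same pair of samples had a summed level of 6 proliferation genes (MKI67, TOP2A, CDK1, CCNB1, BUB1 and PLK1) of 173 and 163 CPM, where the other controls had 484 to 519 CPM and the irradiated samples 53.1 to 91.9 CPM. Within the controls the samples with little proliferation signal thus had more CLDN3 and CLDN4, whereas the irradiated samples, with less still, had less of both. Without both samples of numbers 1 and 3, CLDN4 fell by 0.32 on the log2 scale (adjusted p = 0.0127) and CLDN3 by 0.46 (adjusted p = 0.00261), and CLDN1 rose by 1.36 (adjusted p = 5.201e-05), so these calls were made in the remaining 3 pairs too. Control replicate 3 also had the highest CDKN1A of the controls, 208 CPM against 66.7 to 80.9 in the others. The part of proliferation in these differences was not tested.

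CLDN10, the other pore-forming claudin of the set, was not called. It was at 10.2, 10.8, 20.9, 11.6 and 12.1 CPM in the controls and 10.1, 17.5, 23.5, 12.5 and 11.5 CPM in the irradiated samples. Replicate 3 was highest in both groups and only 3 of 5 pairs were higher after irradiation. The log2 fold change was 0.18 (SE 0.110, interval -0.08 to 0.43, adjusted p = 0.227), an interval that includes the size of the CLDN12 change. The gene lies at chr13:95433604-95579759, and 46.0% of its exon bases are under DZIP1 on the opposite strand. CLDN10 has isoforms with different first exons and different ion preference, which gene counts do not separate.

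OCLN and TJP1, the other strand protein and its scaffold, stayed within narrow ranges. OCLN, at chr5:69492292-69558104, was at 57.0, 60.5, 62.7, 51.3 and 63.1 CPM in the controls and 54.9, 52.5, 56.7, 57.5 and 55.0 CPM after irradiation. The values interleave, with 4 pairs lower and 1 higher. The log2 fold change was -0.09 (interval -0.23 to 0.05, adjusted p = 0.274), and OCLN passed the test only with scaling by library size alone, at -0.16 (adjusted p = 0.0469). TJP1, at chr15:29699367-29968915, was at 197, 182, 186, 196 and 194 CPM in the controls and 187, 185, 184, 217 and 214 CPM after irradiation. Replicates 4 and 5 were higher and replicate 1 was lower after irradiation. The log2 fold change was 0.04 (interval -0.07 to 0.16, adjusted p = 0.495), and its sign turned, to -0.03, with library size scaling alone.

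CLDN7, a claudin of collecting duct and other epithelia at chr17:7259903-7263983, was near the floor of the data. Its raw counts were 17, 25, 23, 19 and 15 in the controls and 16, 5, 18, 15 and 6 in the irradiated samples, 159 in all. Each irradiated sample was lower in CPM than its control, but with a filter of 1 count the log2 fold change of -0.52 had an adjusted p of 0.225.

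**Figure D2:**
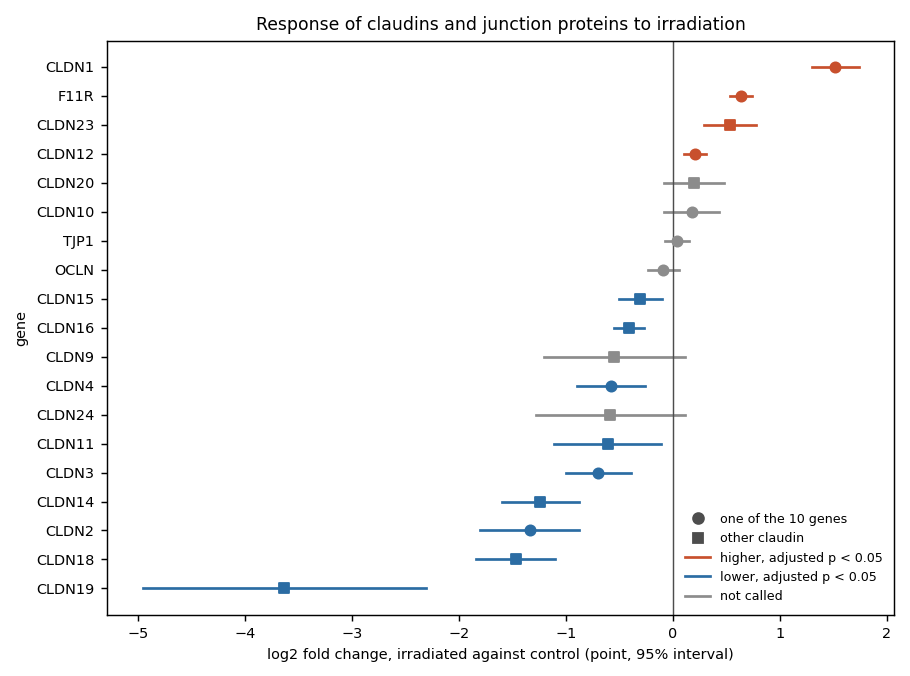
Fitted log2 fold change, irradiated against control, of the 9 tested genes of the set (circles) and the 10 tested other claudins (squares), with 95% intervals as lines. Orange marks genes higher and blue genes lower at an adjusted p under 0.05, and grey genes not called. CLDN1 at 1.52 stands alone on the right, and 9 of the 12 claudins called lie on the left. Over all genes tested, 23.9% were called higher and 22.7% lower.

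The promoters of the genes were searched for 5 short motifs, a list chosen with the values known. Windows of 250 bases before the start were found in the RefSeq table for 9 of the 10 genes, all but F11R, 16 windows in all. The AP-1 site (TGANTCA, which reads as the same motif on both strands) was present in windows of CLDN2 and CLDN4 and in 6.57% of all windows. Both genes fell, but CLDN3, which also fell, had no match, and neither did the other CLDN2 window. The AP-1 matches are shown with the motif in capitals, on the plus strand of GRCh38.p14. The first lies at chrX:106900094-106900120, where RIPPLY1 has an exon on the other strand, with the motif 60 to 54 bases before the start. The others lie at chr7:73830746-73830770 and chr7:73830825-73830851, 242 to 236 and 161 to 155 bases before the start, in exons of longer CLDN4 transcripts.
CLDN2 AP-1 match: atttttctccTGATTCAtctcatgcca
CLDN4 AP-1 match, far: ctgggctgTGATTCAgtgtctgtct
CLDN4 AP-1 match, near: gactggatagTGACTCAgggacccggg
The E-box CAGGTG (either strand), the sequence bound by SNAI and ZEB repressors, was in windows of CLDN7, OCLN and TJP1 and in 17.5% of all windows. The windows of CLDN1, CLDN2, CLDN3, CLDN4, CLDN10 and CLDN12 did not hold it. The GC box was in windows of 7 of the 9 genes: CLDN1, CLDN3 (4 matches), CLDN4, CLDN7, CLDN10, OCLN and TJP1, so it was found in genes that rose, fell and were not called. The TEAD motif GGAATG (11.9% of all windows) and TATAAA (10.7%) were in no window of the set. A gene was counted if any of its windows held the motif, whereas the shares of all windows are per single window, so these are unlike units. A match describes letters only, and binding was not measured.

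Levels of different genes were compared as CPM per kb of merged exon. The order of close neighbours depends on that length. TJP1 has 11315 bases of merged exon and a longest transcript of 7950, whereas F11R has 5061 and 4770. CLDN4 has 4699 and 4163, which count exons of longer transcripts before its RefSeq start. A shorter CLDN4 transcript would give it a higher level per kb. The order of the 10 genes was not worked out with the longest or a shorter transcript. Exon bases under other genes were kept in the lengths: 36.6% for F11R, 17.6% for CLDN12 and, on the opposite strand, 46.0% for CLDN10. Their levels may thus be understated, by unlike amounts. In the controls CLDN4 (82.5 ± 27.7) and CLDN1 (80.2 ± 9.41) led the 10 genes and did not differ beyond their spread, CLDN4 being the higher in 2 of 5 samples. CLDN3 (23.6), TJP1 (16.9), CLDN2 (15.4) and F11R (13.8) followed, the last 3 with overlapping ranges. OCLN (5.23), CLDN12 (4.72) and CLDN10 (3.88) overlapped in turn, and CLDN7 was at 0.074. After irradiation CLDN1 (231 ± 31.5) was above CLDN4 (53.2 ± 4.13) in 5 of 5 samples, and F11R (21.5), TJP1 (17.4) and CLDN3 (14.2) came next with no overlap between these neighbours. CLDN2 (6.09) overlapped CLDN3 through irradiated replicate 1, and CLDN2, CLDN12 (5.42), OCLN (4.91) and CLDN10 (4.44) had overlapping ranges from one to the next.

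The make-up of the claudin family showed the change most plainly. Summed over 24 claudins, the level was 362, 294, 407, 299.7 and 329 CPM per kb in the controls and 413, 357, 447, 425 and 415 CPM per kb after irradiation. The groups overlapped, although each irradiated sample exceeded its own control, and the sum was not tested. CLDN1 held 20.3, 27.1, 17.0, 30.6 and 26.6% of that sum in the controls and 55.4, 49.8, 55.3, 60.2 and 59.0% after irradiation. With merged exon lengths it went from one of 3 leading claudins to the majority in all but irradiated replicate 2, which was just under it. The CLDN4 length counts exons of longer transcripts. A shorter length would raise the CLDN4 share and lower that of CLDN1, and shares with a shorter CLDN4 transcript were not worked out. CLDN16 went from 33.3 ± 3.20 to 20.5 ± 1.96%, CLDN4 from 23.9 ± 4.67 to 13.0 ± 1.36%, CLDN3 from 6.89 ± 0.79 to 3.49 ± 0.49% and CLDN2 from 4.56 ± 2.79 to 1.48 ± 1.16%. Irradiated replicate 1 held much of the CLDN2 share, and without replicate 1 the irradiated mean was 0.966%. CLDN12 held 1.40% and then 1.32% and CLDN10 1.13% and then 1.08%, so their shares hardly moved. The ratio of CLDN1 to CLDN4 was 0.57 to 1.52 in the controls and 3.29 to 5.07 after irradiation. The ratio of CLDN2 to CLDN1 was 0.053 to 0.396 and then 0.013 to 0.063. Shares of a sum are not independent, and a rise of 1 claudin lowers the others' shares without any fall of their own.

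**Figure D3:**
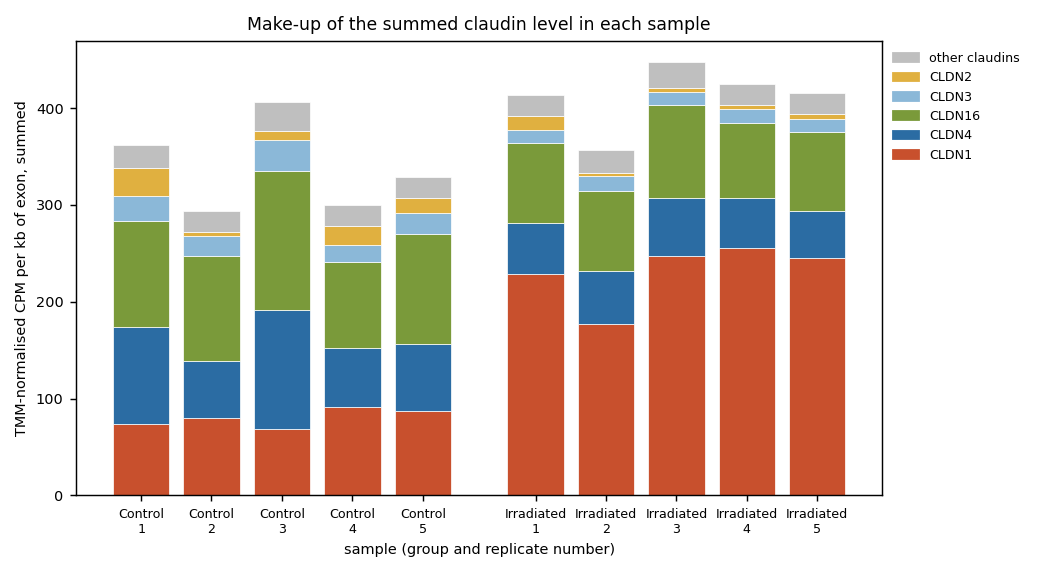
Summed claudin level in each sample in TMM-normalised CPM per kb of merged exon, stacked by claudin from 0, with control replicates 1 to 5 on the left and irradiated replicates 1 to 5 on the right. The CLDN1 segment grows from 69.1 to 91.8 in the controls to 178 to 256 after irradiation, while the CLDN4, CLDN16, CLDN3 and CLDN2 segments are smaller than in the control of the same number.

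Among the claudins outside the set that were called, more fell than rose. Of 17 listed, 10 were tested, 1 rose, 6 fell and 3 were not called, with a median log2 fold change of -0.56. Of all genes tested 23.9% rose and 22.7% fell. Some of these falls were in scarce genes or were lost in refits, as given for each gene. CLDN23 rose from 10.6 ± 3.71 to 14.9 ± 2.42 CPM (log2 fold change 0.53, adjusted p = 0.00440, edgeR; 0.0771 without the replicate block). CLDN14, which blocks the paracellular cation path of the thick ascending limb, fell from 12.6 ± 2.20 to 5.33 ± 1.02 CPM (-1.24, adjusted p = 0.000534), without overlap. CLDN18, best known from stomach and lung, fell from 1.35 ± 0.35 to 0.49 ± 0.17 CPM (-1.47, adjusted p = 0.000298). CLDN19, the partner of CLDN16, was scarce, with 93, 51, 27, 36 and 44 counts in the controls and 0, 2, 3, 8 and 3 after irradiation (-3.63, SE 0.571, adjusted p = 0.00162). It passed the filter through its control counts. Without replicate 1, and without numbers 1 and 3, it was under the filter and was not refitted.

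CLDN15, a pore-forming claudin of the intestine, went from 7.21 to 5.85 CPM (-0.30, adjusted p = 0.0239) and CLDN11, the claudin of myelin and Sertoli cells, from 1.81 to 1.16 CPM (-0.61, adjusted p = 0.0488). CLDN11 lost its call without the replicate block and without replicate 1, 2, 4 or 5, with adjusted p of 0.0828 to 0.161. CLDN15 lost its call without the block, without replicate 1, 4 or 5 and without numbers 1 and 3, with adjusted p of 0.0665 to 0.155. CLDN9 (-0.55, adjusted p = 0.152), CLDN20 (0.20, adjusted p = 0.213) and CLDN24 (-0.58, adjusted p = 0.149) were below 1 CPM in most samples and were not called. CLDN9 passed at -0.86 (adjusted p = 0.0203) without replicate 5.

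The partners of the set were read in the same fit. The list of other junction membrane proteins had 11 tested genes, of which 6 rose and 1 fell. Of all genes tested 23.9% rose and 22.7% fell. MARVELD2 (tricellulin, which seals the corners between 3 cells) rose from 51.7 ± 5.89 to 65.9 ± 2.55 CPM (0.36, adjusted p = 0.00127). ILDR1 (angulin-2), which recruits it to those corners, rose by 0.38 (adjusted p = 0.00620). CLMP and CXADR, immunoglobulin-like adhesion molecules related to JAM-A, rose by 0.69 and 0.40. JAM3, encoding JAM-C, fell by 1.88 on the log2 scale (adjusted p = 0.00103) from a control mean of 0.61 CPM, with overlapping groups and 35.6% of its exon bases under genes of the opposite strand.

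The scaffold list was split, with 9 of 29 tested genes higher, 9 lower and a median of -0.005. TJP3, a scaffold related to TJP1, was not called (-0.16, adjusted p = 0.118). CGN (cingulin), a cytoplasmic plaque protein that binds ZO-1, fell from 112 ± 13.9 to 74.6 ± 6.15 CPM (-0.58, adjusted p = 0.000138), and its paralogue CGNL1 fell by 0.63 on the log2 scale (adjusted p = 0.0134). The angiomotins differed among themselves: AMOTL1 and AMOT rose by 0.72 and 0.56, and AMOTL2 fell by 0.61 on the log2 scale. Of the 50 tested junction genes of these 3 lists outside the set, 64% were called, against 46.6% of all genes tested. They were 16 in each direction, and the median was -0.05. That even split depends on the scaling, with 12 higher and 18 lower by library size alone.

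Of 12 tested transcription regulators known from epithelial identity or its loss, 6 rose and 4 fell, beside 23.9% and 22.7% of all genes. The repressor SNAI1 fell from 8.91 ± 3.16 to 0.927 ± 0.302 CPM (-3.23, adjusted p = 0.000280), and its relative SNAI2 rose from 0.143 ± 0.028 to 0.868 ± 0.318 CPM (2.54, adjusted p = 0.000205), both without overlap and both under 2 CPM after irradiation. ZEB2 rose by 0.92 (adjusted p = 0.0108) at under 0.5 CPM, and KLF4, an epithelial differentiation factor, by 0.82 (adjusted p = 0.00164). OVOL1, an epithelial repressor, fell by 0.88 on the log2 scale (adjusted p = 0.00345), and 27.3% of its exon bases lie under genes of the opposite strand. GRHL2, a claudin regulator of many epithelia, had 37 counts over the 10 samples and was not tested.

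Of 15 kinases, proteases and adhesion partners known to act on claudins, 8 rose and 2 fell, beside 23.9% and 22.7% of all genes. EPHA2, a receptor kinase that phosphorylates CLDN4, rose by 0.69 (adjusted p = 0.000805), and WNK4, another claudin kinase, rose by 0.91 (adjusted p = 0.00201) at about 1 CPM. WNK1 fell by 0.42 (adjusted p = 0.000324). The membrane protease PRSS8 rose by 0.72 (adjusted p = 0.0244) but lost its call without replicate 1, 4 or 5 (adjusted p from 0.0651 to 0.0822) and without the block (0.371). TMPRSS4 fell by 0.25 (adjusted p = 0.0103; 0.301 without the block).

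**Figure D4:**
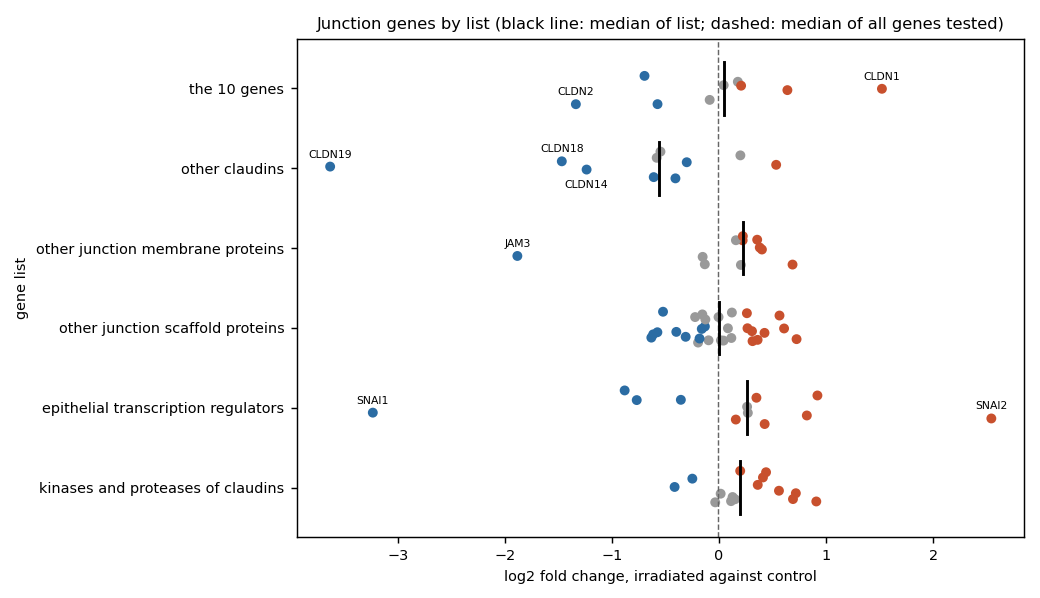
Fitted log2 fold change of each tested gene in 6 lists, with orange for higher, blue for lower and grey for not called, vertical position within a list being spread for legibility only. Black lines are list medians, from -0.56 for other claudins to 0.27 for transcription regulators, and the dashed line is the median of all genes at -0.01.

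The labelled cell type and treatment were checked on markers. CDKN1A, the p53 target that encodes the cell cycle inhibitor p21, was at 66.7 to 208 CPM in the controls and 584 to 768 CPM after irradiation (log2 fold change 2.92, adjusted p = 9.113e-05), and all 6 proliferation genes fell. Depth was 66269311 to 131555873 counts on genes per sample. Of 10 proximal tubule markers, LRP2, SLC34A1, SLC22A6 and HNF4A were under 200 counts in all, and the summed level of the list (236 to 436 CPM, then 386 to 739) was mostly ANPEP and CDH6. The thick ascending limb list summed to 469 to 897 CPM in the controls and 298 to 488 after irradiation, with UMOD at 0 counts in every sample. That list includes CLDN16, which by itself was at 296 to 478 and then 258 to 320 CPM. CLDN19 was scarce, at a mean of 0.50 and then 0.037 CPM. SLC12A1, KCNJ1, CLDN16 and CLDN19 all fell. General tubule markers summed to 3240.2 to 3517 and 3267 to 4434 CPM. Parietal epithelium markers went from 859.8 to 964 up to 1308 to 1608 CPM. That list includes CLDN1, which by itself went from 251 to 333 up to 644 to 929 CPM and made up most of the rise. Collecting duct (3.03 to 3.91, then 1.29 to 4.12), endothelium (1.32 to 2.49, then 4.18 to 6.09) and leucocyte markers (0.55 to 0.84, then 0.88 to 1.34) were at a few CPM or less. The fibroblast and mural list (15.9 to 23.5, then 28.6 to 40.1) was almost all COL1A1, with COL3A1 and LUM at or near 0. The part of any cell mixture in the claudin values was not tested.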

How the data were processed

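Poly-A RNA of RPTEC/TERT1 cells was sequenced in 10 samples, grouped and numbered by GEO's labels. The authors removed adapters with Trim-Galore, mapped reads to GRCh38 with STAR and had STAR count them on GENCODE genes, and these raw counts were used as deposited. The annotation release and the strand setting are not given in the sources used here, and the labels and the study's methods name different library kits. Every sample column was used, and 0 columns were left out. Depth was 66269311 to 131555873 counts, so replicate spread rather than counting limits all but the scarcest genes.

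Counts were tested in R 4.3.3 with edgeR 4.0.16 (TMM, glmQLFit, glmQLFTest) on 19006 genes with at least 200 counts, with replicate number as a block as in the study's own model, and Benjamini-Hochberg adjustment over all genes. Standard errors are the log2 fold change over the square root of F, with 95% intervals from the t distribution. The script was tested on simulated data with the same relative spread for every gene and no difference between replicate numbers. These samples do differ between numbers, so that test does not bear on the replicate block. Samples were paired by their numbers in the labels. Deviations from group means correlated at 0.22 to 0.51 for each number and at -0.35 to 0.32 between numbers. These ranges overlap: control 5 with irradiated 4 gave 0.32, above the 0.22 of number 2. Centring each group on its mean also lowers the correlations between numbers, so the contrast does not establish the pairing. No 2 replicates agreed within sampling noise (chi-square per gene at least 4.93). Replicates 4 and 5 were by far the closest in both groups, at 8.36 in controls and 4.93 in irradiated samples. Other comparisons within a group gave 29.6 to 111 in controls and 21.0 to 46.9 in irradiated samples. The labels do not say whether numbers 4 and 5 are related cultures, and the tests treat all 5 numbers as separate. CPM was divided by merged exon length (GENCODE 44, also the source of coordinates) for levels between genes. Promoter windows were from RefSeq, GRCh38.p14. Alternatives were DESeq2 1.42.0, limma-voom (limma 3.58.1), upper-quartile and library size scaling, other count filters, no block and each replicate left out. Other gene lengths were used for the claudin shares only. A run without numbers 1 and 3 was added after seeing the data.

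The 10 genes, the lists and the motifs were chosen with earlier results of these data known. Named were all 10 genes, every other claudin with 200 counts, the 3 largest rises and 3 largest falls at an adjusted p under 0.05 of each other list, the partners TJP3, MARVELD2, CGN and GRHL2, and CDKN1A. Some genes that this rule would name are not reported here. Marker genes were given as lists, and the proliferation genes were added after the values were seen. Other data types of the study were not analysed here.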

Additional observations from a re-analysis of the deposited data

Results flagged for a closer look

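Of 22 groups of 5 samples checked, the 10 genes and the summed claudin level in each treatment, 3 held a sample far from the rest by Dixon's criterion, where chance flags about 1 in 20 groups (1.1 expected here). CLDN2 in irradiated replicate 1 was 49.6 CPM, and the other irradiated samples were 9.91 to 18.3 CPM. Control replicate 1 was also the highest control for CLDN2. CLDN10 in control replicate 3 was 20.9 CPM against 10.2 to 12.1 CPM in the other controls, and CLDN12 in the same sample was 39.3 CPM against 28.2 to 31.0 CPM. Irradiated replicate 3 was the highest irradiated sample for both of these genes. Leaving out replicate 1 gave -1.42 for CLDN2 (adjusted p = 0.00561, edgeR). Leaving out replicate 3 gave 0.24 for CLDN12 (adjusted p = 0.00224, edgeR) and 0.18 for CLDN10 (adjusted p = 0.273), on the log2 scale. CLDN10 moved most without replicate 2, to 0.056 (adjusted p = 0.534).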

How the results depend on the processing

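The 9 tested genes were refitted in 13 other ways each, and 112 of the 117 refits kept direction and side of the threshold. CLDN1, CLDN3, CLDN4, CLDN10 and F11R did so in every refit. With library size scaling alone TJP1 turned to -0.033 (adjusted p = 0.615) and OCLN passed, which gave 4 genes lower instead of 3. CLDN12 lost its call with a filter of 1 count (adjusted p = 0.0660). Without the replicate block CLDN2 (-1.33, adjusted p = 0.0714) and CLDN12 (0.20, adjusted p = 0.114) lost theirs, leaving 2 genes higher and 2 lower. Of the other named genes, 5 lost their call without the block: CLDN11, CLDN15, CLDN23, PRSS8 and TMPRSS4. TJP3 passed with library size scaling alone (-0.23, adjusted p = 0.0372). Without correction for gene length the share of CLDN4 in the claudin level was 31.2% in controls and 16.9% after irradiation, since its merged exons are longer than those of most claudins. Counts per gene do not separate isoforms, and the scarcest genes, CLDN7 and CLDN19, are limited by depth.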
